A study of Mus musculus with 3 samples.

Results

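The transcripts of 9 mRNA regulators were followed through an RNA immunoprecipitation sequencing (RIP-seq) experiment on YTHDF2, a cytoplasmic reader protein that binds N6-methyladenosine (m6A) in RNA and promotes RNA decay. The genes were the IGF2BP family (Igf2bp1, Igf2bp2 and Igf2bp3), the LIN28 pair (Lin28a and Lin28b), the Pumilio gene Pum2, the ELAV gene Elavl1 and the Musashi pair (Msi1 and Msi2). They were taken by symbol from a list of proteins that bind mRNA and stabilise or repress it, a list drawn up with earlier results of these data known. They were 9 of the 49997 genes in the count table, and all 9 were among the 19601 genes with enough reads to be tested. The proteins they encode were not measured.

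The cells were E14 mouse embryonic stem cells (ESCs), treated with doxycycline (Dox) for 24 h before every library was made. In the cell system described by the study, Dox switches on a Dux transgene, the cells also carry a tdTomato reporter driven by the MERVL promoter, and some of the ESCs move toward a 2-cell-like (2C-like) state. RNA brought down with an anti-YTHDF2 antibody (IP, n = 2) was compared with an input library (n = 1), and the question put to each transcript was whether it was more or less abundant in the IP. Whether the antibody met a cleared lysate or extracted RNA is described differently in the methods and in the labels, and no IP with a control antibody was used here. The material from which the input RNA was prepared, intact cells or cleared lysate, is not given in the sources used here. Mitochondrial genes made up 1.67% of the input counts and 0.036% of those in each IP library, and the part of this difference in the ratios was tested only by leaving those genes out, which changed no call of the 9. A ratio of IP to input is therefore a recovery in this IP relative to other transcripts, and binding without YTHDF2 was not measured.

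Of the 9 transcripts 3 were depleted in the YTHDF2 IP, namely Msi2, Igf2bp2 and Igf2bp3, and 0 were enriched, where 14% of all genes tested were depleted and 15.2% enriched. With 9 genes, a count of 0 enriched is near that background. Igf2bp1, which belongs to the same family as the other two, stayed close to its input level, so the composition of IGF2BP transcripts differed between input and IP. The Musashi pair also differed, and Msi2 was 3.94-fold lower in the IP and Msi1 1.51-fold lower. Lin28a was recovered in the IP at about the level of the input, and so was Elavl1 in the main fit. Elavl1 was higher by adjusted p in the edgeR test, below the fold threshold, when a trend on GC content was removed or counts were scaled by their total.

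The 9 proteins act on mRNA in different ways. IGF2BP proteins carry RRM and KH domains, are themselves described as m6A readers, and are known for stabilising the mRNAs they bind, so they stand opposite to YTHDF2 in the fate of methylated mRNA. LIN28 proteins block maturation of the let-7 microRNAs and bind many mRNAs in pluripotent cells. Pumilio proteins recruit the CCR4-NOT deadenylase to mRNAs with a short element that starts with UGUA, ELAVL1 (HuR) binds AU-rich elements and protects the mRNA, and Musashi proteins bind UAG-containing elements and control translation in stem and progenitor cells.

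Counts summed to between 35259827 and 36986994 per library. The mESC markers were abundant in all libraries (10 of 10 tested, with a summed level of 9102 to 9615 CPM, which is the count scaled to the total of its library), and the 8 markers of the 2C-like state summed to 1725 CPM in the input and to 2850 and 2834 CPM in the IP libraries. Of these 8 markers 5 were higher in the IP by adjusted p in the edgeR test, and Zscan4c, at a log2 fold change of 1.14, was called enriched. Markers of other lineages had lower summed levels. Of the fibroblast markers 4 of 6 exceeded 3 counts in every library, with a summed level of 34.4 to 37.2 CPM, mostly from Thy1 and Pdgfrb, while Col3a1 had 0 counts throughout. Of the neural markers 5 of 6 did so, at 90.1 CPM in the input and 181 and 173 CPM in the IP libraries, mostly from Tubb3 and Sox1, while Dcx had 2 counts, both of them in the input. The 6 endoderm markers all did so, at 12 to 18 CPM. Sox1 (10.1 CPM in the input, 36.4 and 32.7 in the IP libraries) and Pdgfrb (6.79, 21.2 and 17.4 CPM) were enriched in the IP, whereas Map2 of the neural list (log2 fold change −1.05) and Dab2 of the endoderm list (−1.23) were depleted. Thy1 was lower at −0.97, short of the fold threshold (edgeR adjusted p = 1.58e-09). The part of these markers in the values below was not tested. The labels do not say whether the 2 IP libraries came from separate cultures. A p-value here therefore measures only the spread between these 2 libraries, which may be technical and was taken mostly from all genes together. That spread was small for the 12620 genes that averaged 100 counts or more, with an SD of 0.20 for the log2 ratio of the IP libraries to each other. Over all genes tested the SD was 0.77.

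Abundance was compared between the 9 genes per length, in TPM, which divides the counts by exonic length before scaling them to the library. In the input Igf2bp1 was the most abundant of the 9 at 123 TPM, followed by Igf2bp2 at 85.6 TPM and Igf2bp3 at 43.6 TPM. Pum2 (41.3 TPM), Elavl1 (36.7 TPM) and Lin28a (33.9 TPM) lay close together below them. Msi1 stood at 24.1 TPM, Msi2 at 10.2 TPM and Lin28b at 5.11 TPM. With a single input library the spread of these levels is not known, so neighbours in this order, such as Igf2bp3 and Pum2, cannot be separated. In bulk libraries such as these, a transcript made in fewer cells and one made at a lower level per cell cannot be told apart. All 9 were far above the floor of 3 counts, and the lowest count of any of them in any library was 623, for Lin28b in IP replicate 1.

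**Figure D1:**
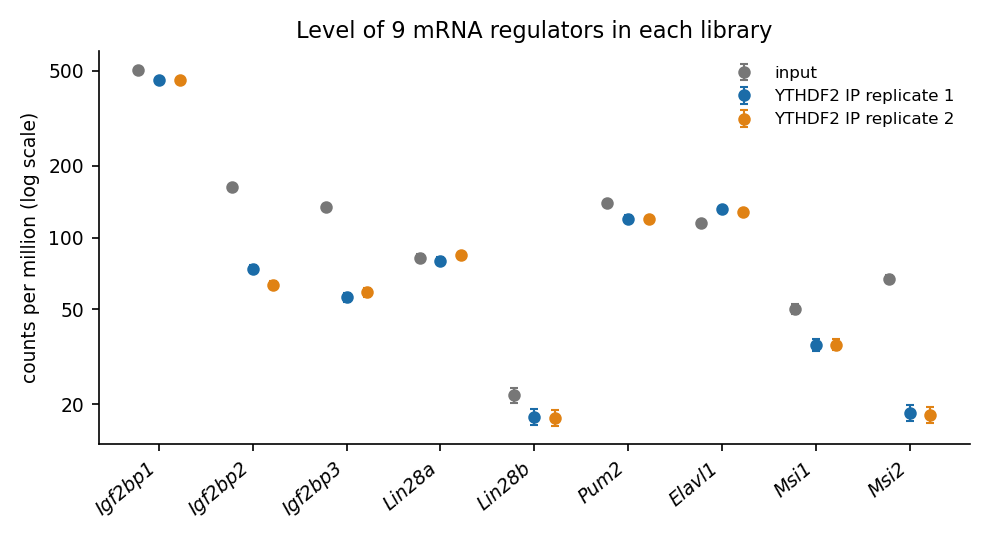
Level of each of the 9 regulators in CPM (log scale) in the input and in the 2 YTHDF2 IP libraries, with 95% Wilson intervals, which cover counting error only and are too narrow because both mates of a pair were counted. The IP points of Igf2bp2, Igf2bp3 and Msi2 lie well below the input point, and those of Lin28a are close to it.

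Over all genes tested, edgeR's quasi-likelihood test with Benjamini-Hochberg adjustment called a gene at an adjusted p under 0.05 and a fold change over 2. By that rule 3 of the 9 regulators (33.3%) were depleted and 0 enriched, compared with 14% and 15.2% of all genes, and DESeq2's Wald test gave the same 2 counts. At an unadjusted p under 0.05 in the edgeR test, 0 were higher and 7 were lower, compared with 30.5% and 31.7% of all genes. With the adjusted p alone and no fold threshold, 7 of the 9 were lower and 0 higher, compared with 30.1% of all genes lower and 28.5% higher. This tally depended on the processing, with 5 lower and 1 higher (Elavl1) when the GC trend was removed, 7 lower and 1 higher (Elavl1) with scaling by total counts, 6 lower with DESeq2's Wald test and 1 lower with the dispersion fixed at 0.1. The shares of all genes at the adjusted p alone are not given here for these settings. The median log2 fold change of the 9 was −0.41, compared with 0.01 over all genes tested, and 8 of the 9 lay below 0. The 9 genes were too few, and were chosen with earlier results of these data known, for a test of the group.

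**Figure D2:**
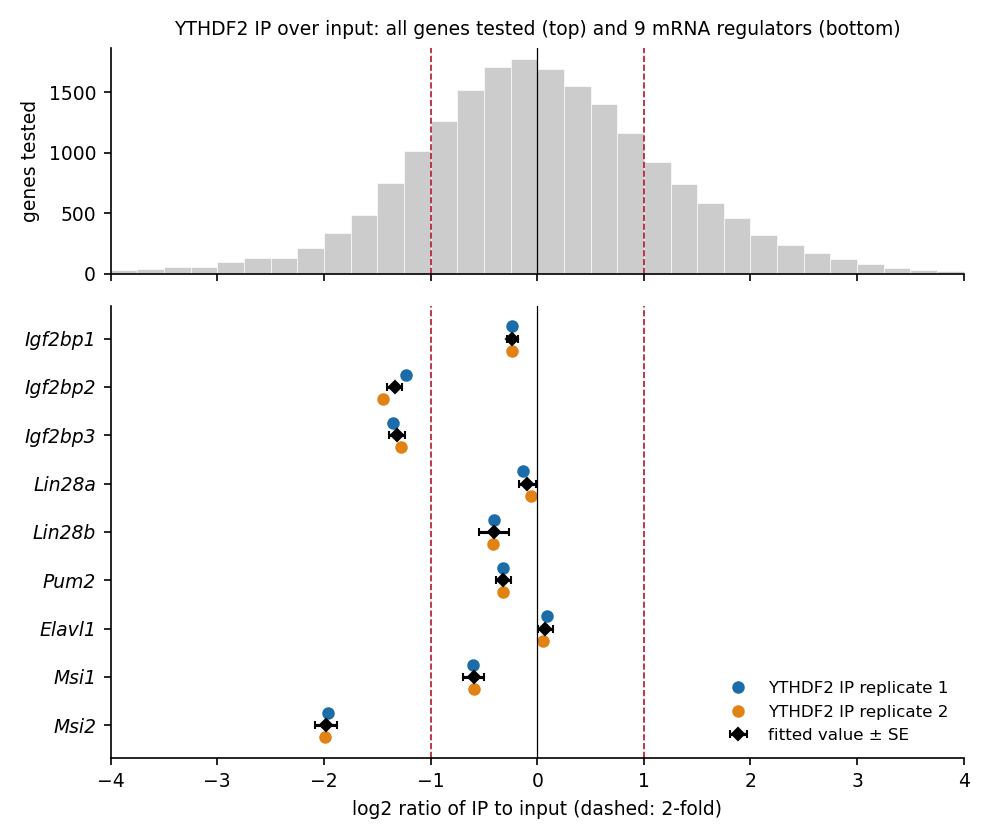
Log2 ratio of YTHDF2 IP to input for the 9 regulators (bottom: each IP library, and the fitted value with its SE) under the distribution of the fitted log2 fold change of all 19601 genes tested (top). Msi2, Igf2bp2 and Igf2bp3 lie past the dashed line of 2-fold depletion in both IP libraries, and no regulator approaches the line of 2-fold enrichment.

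Igf2bp1 (chr11:95957163-96005944 in mm10, minus strand) encodes the IGF2BP protein known for binding Myc and Actb mRNAs. The input held 18600 counts of it, IP replicate 1 held 16079 and IP replicate 2 held 16397, and its levels were 503, 456 and 457 CPM. Both IP libraries were slightly lower than the input and nearly equal to each other, with log2 ratios of −0.24 and −0.23. The fitted value, −0.24 ± 0.052 (SE), was past the adjusted threshold in the edgeR test (adjusted p = 5.92e-05), at a fold of 1.18. Of its merged exons 92 bases are shared with Mir3063 on the same strand, and the counting skipped reads that fell on both.

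Igf2bp2 (chr16:22059009-22163299, minus strand), which encodes a family member known for roles in metabolism and stem cell growth, was depleted. Its transcript had 6000 counts without IP (input), 2603 after IP in replicate 1 and 2275 after IP in replicate 2, or 162, 73.8 and 63.4 CPM. The IP libraries lay well below the input, replicate 2 below replicate 1, and the gap to the input was several times the gap between them. The log2 ratios were −1.23 and −1.45, and the fitted value was −1.34 ± 0.074 (SE; edgeR adjusted p = 4.01e-26), which is 2.53-fold lower in the IP.

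Igf2bp3 (chr6:49085218-49215469, minus strand), the oncofetal family member, was depleted as well. The input held 4955 counts, compared with 1985 and 2117 in IP replicates 1 and 2, or 134, 56.3 and 59 CPM. Here too both IP libraries were far below the input and close to each other, with log2 ratios of −1.35 and −1.28. The fitted value was −1.31 ± 0.076 (SE; edgeR adjusted p = 1.57e-26), a fold of 2.48. The calls of Igf2bp2 and Igf2bp3 were lost when the dispersion was fixed at 0.1 and not estimated, with edgeR adjusted p-values of 0.0696 and 0.0761 and the same log2 fold changes. The lowest edgeR adjusted p over the alternatives came with halved counts, at 3.28e-74 for Igf2bp2 and 2.39e-64 for Igf2bp3. The log2 fold changes there were nearly the same, at −1.339 and −1.315. Halving the counts adds no evidence, so these p-values are not stronger support than the main fit.

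Set against each other within each IP library, Igf2bp1 exceeded Igf2bp2 by 0.99 and 1.22 in log2 ratio and exceeded Igf2bp3 by 1.11 and 1.05. The differences of the fitted values were 1.10 ± 0.091 and 1.08 ± 0.092 (SE). Igf2bp2 and Igf2bp3 differed from each other by 0.11 in one library and −0.17 in the other, so their order changed between the libraries and the fitted difference of −0.03 ± 0.106 (SE) was smaller than its error. Igf2bp1 took 62.9% of the counts of the 3 genes in the input (95% Wilson interval 62.4 to 63.5), 77.8% in IP replicate 1 (77.2 to 78.4) and 78.9% in IP replicate 2 (78.3 to 79.4). The share of Igf2bp2 was 20.3% before IP and 12.6% and 10.9% after it. The share of Igf2bp3 was 16.8% before IP and 9.61% and 10.2% after it. These intervals cover counting error only and are too narrow even for that, because both mates of a read pair were counted, and the shares were not tested because the input has no replicate. Per length, Igf2bp1 was 1.44 times as abundant as Igf2bp2 in the input and 2.87 and 3.35 times as abundant in the IP libraries.

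**Figure D3:**
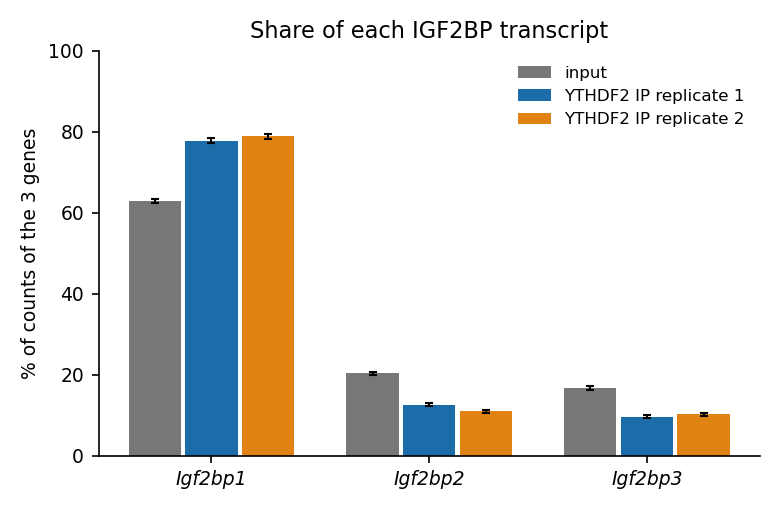
Share of each IGF2BP transcript in the summed counts of the 3 genes, in percent, for the input and the 2 YTHDF2 IP libraries, with 95% Wilson intervals, too narrow because both mates of a pair were counted. Igf2bp1 takes 62.9% of the input and 77.8% and 78.9% of the IP libraries, while Igf2bp2 and Igf2bp3 take smaller shares of the IP.

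The family differed in where its mRNAs carry the sequence GGACT, the most common form of the m6A consensus. It was searched on the mRNA strand only, in 1 RefSeq mRNA per gene (the one with the longest coding part), and 91.5% of 15015 mRNAs of tested genes hold it at least once. Igf2bp1 has 10 matches, all of them after the stop codon, in a 3' UTR of 6337 bases that is longer than that of 98.8% of those mRNAs. Igf2bp2 has 5 matches, of which 3 are in its coding part, and Igf2bp3 has 2, of which 1 is in its coding part. One coding match of Igf2bp2 lies in a stretch that aligns with the coding match of Igf2bp3 and with a stretch of Igf2bp1 that has no match, shown here to compare the paralogs. It was picked after the IP values were seen, and its part in them was not tested. For the other 2 coding matches of Igf2bp2, the best-matching stretch of neither paralog holds GGACT. The 5 letters at the position of GGACT are in capitals, and the 29-base stretches were read from GRCm38.p6 (the assembly of mm10) in the sense of the mRNA.
Igf2bp1 (chr11:96005492-96005520, minus strand): ctacgccttcgtGGATTgccccgacgagc
Igf2bp2 (chr16:22162819-22162847, minus strand): ctacgccttcgtGGACTaccccgaccaga
Igf2bp3 (chr6:49214330-49214358, minus strand): ctacgcgttcgtGGACTgcccggacgagg
The stretch of Igf2bp1 has 25 of 29 bases in common with that of Igf2bp2, and that of Igf2bp3 has 24, while the next best stretch of either coding part has 16. The first match of Igf2bp1 after its stop codon lies 1206 bases downstream.
Igf2bp1 (chr11:95962277-95962305, minus strand): cttgtggtggtcGGACTacaacccaaccc
A match is a description of the sequence, and methylation at these letters was not measured here.

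Msi2 (chr11:88339382-88718306, minus strand), which encodes a Musashi protein known for maintaining haematopoietic stem cells, was the most depleted of the 9 transcripts. Counts stood at 2485 for the input and at 650 and 647 for IP replicates 1 and 2, or 67.2, 18.4 and 18 CPM. Both IP libraries were far below the input and differed from each other by 3 counts. The log2 ratios were −1.96 and −1.99, and the fitted value of −1.98 ± 0.104 (SE; edgeR adjusted p = 8e-29) corresponds to 3.94-fold lower in the IP. This placed Msi2 at percentile 4.72 of the log2 fold change of all genes tested, and its adjusted p was at most 0.00453 over the alternatives of edgeR and DESeq2. The table holds a copy of Msi2 on an alternate scaffold, so its TPM was computed from the length on the main chromosome, and reads that map to both copies had been left out.

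Msi1 (chr5:115359059-115455698, plus strand), the Musashi protein known from neural progenitors, was lower in the IP without passing the fold threshold. The input held 1858 counts of Msi1, and IP replicates 1 and 2 held 1249 and 1278, or 50.2, 35.4 and 35.6 CPM. The IP libraries were below the input and close to each other, with log2 ratios of −0.60 and −0.59. The fitted log2 fold change was −0.60 ± 0.099 (SE; edgeR adjusted p = 1.99e-07). With a trend on GC content removed it was −1.09 and passed the fold threshold, and Msi1 has the highest GC content of the 9, at 58.3%. Of its merged exons 74 bases are shared with the antisense gene 4930401G09Rik, and the counting did not use strand.

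Msi1 exceeded Msi2 by 1.36 in IP replicate 1 and 1.4 in IP replicate 2, and the difference of the fitted values was 1.38 ± 0.144 (SE). Per length, Msi1 was 2.37 times as abundant as Msi2 in the input and 6.09 and 6.26 times as abundant in the IP libraries. The difference between the paralogs was not tested. Msi1 and Msi2 share 2 coding matches in aligned stretches, shown here to compare the paralogs, with GGACT in capitals.
Msi1 (chr5:115429981-115430009, plus strand): atgttcatcggaGGACTcagttggcagac
Msi2 (chr11:88717713-88717741, minus strand): atgtttatcggtGGACTgagctggcagac
Msi1 (chr5:115450890-115450918, plus strand): ggcagccaaccaGGACTccggggtcagca
Msi2 (chr11:88348840-88348868, minus strand): ccctgccagccaGGACTccggagtgggga
The first pair of stretches has 25 of 29 bases in common, and the second pair, where GGACT starts 115 bases before the end of the stop codon in both mRNAs, has 21 of 29. In all, Msi1 has 4 matches and Msi2 has 5.

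Lin28a (chr4:134003330-134019196, minus strand), the LIN28 protein used in reprogramming to pluripotency, was not distinguishable from its input level. Counts were 3034 before IP, and 2822 and 3023 in IP replicates 1 and 2, or 82, 80 and 84.2 CPM. The input value lay between the 2 IP values on the CPM scale, while after TMM scaling both log2 ratios were slightly below 0, at −0.13 and −0.06. The fitted log2 fold change was −0.09 ± 0.079 (SE; edgeR adjusted p = 0.313), and with scaling by total counts it was 0.00183.

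Lin28b (chr10:45376617-45486314, minus strand), the paralog known for holding let-7 primary transcripts in the nucleus, was the least abundant of the 9 in the input, while per length Msi2 was lower than it in both IP libraries. Lin28b had 806 input counts, with 623 and 628 in IP replicates 1 and 2, or 21.8, 17.7 and 17.5 CPM. Both IP libraries were lower than the input by a similar amount, with log2 ratios of −0.40 and −0.41. The fitted value was −0.41 ± 0.137 (SE; edgeR adjusted p = 0.00816). It turned to 0.17 when the GC trend was removed, and the merged exons of Lin28b have a GC content of 41.2%, lower than in all but 7.6% of the genes tested. Lin28a exceeded Lin28b by 0.27 and 0.35 in the IP libraries, and the fitted difference was 0.31 ± 0.158 (SE). Per length, Lin28a was 6.65 times as abundant as Lin28b in the input, and 8 and 8.5 times in the IP libraries.

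LIN28 and IGF2BP transcripts are textbook targets of let-7, and they share the letters complementary to its seed. In 8 let-7 members of RefSeq the seed (bases 2 to 8, in capitals) is the same, and let-7a is shown as the example.
mmu-let-7a-5p: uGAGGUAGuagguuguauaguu
The complement CTACCTC was searched after the stop codon on the mRNA strand, a choice made after the data were seen, and 9.03% of the 15015 mRNAs hold it. Of the 9 regulators 5 hold it, with 4 matches each in Igf2bp1 and Lin28b, 2 in Lin28a and 1 each in Igf2bp2 and Igf2bp3, and with none in Pum2, Elavl1, Msi1 and Msi2. Only 8 of the 15015 mRNAs have 4 or more matches. A match is more frequent in a long 3' UTR, and among the 893 mRNAs with a 3' UTR of at least 4000 bases 29.3% have one. The match nearest to the stop codon is shown for the mRNAs with at least 2, with CTACCTC in capitals.
Igf2bp1 (chr11:95961768-95961796, minus strand): tgcgaagtaaaCTACCTCaaggtgtgaag
Lin28a (chr4:134005179-134005207, minus strand): agcctgttgaaCTACCTCatttttgccga
Lin28b (chr10:45381012-45381040, minus strand): gggcgggaagtCTACCTCatgcaagcaca
The 5 transcripts with a match include 2 depleted ones, Igf2bp2 and Igf2bp3, and 3 that were not called, so transcripts with a match lay on both sides of the depletion threshold. Levels of let-7 were not measured here.

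Pum2 (chr12:8674092-8752583, plus strand) had 5170 input counts, and 4236 and 4285 in IP replicates 1 and 2, or 140, 120 and 119 CPM. Both IP libraries were lower than the input and nearly equal to each other. The log2 ratios were −0.32 in both, and the fitted value was −0.32 ± 0.069 (SE; edgeR adjusted p = 4.17e-05), at a fold of 1.25. With the GC trend removed the value was 0.10, and the GC content of Pum2 is 43.6%. The Pumilio element, TGTANATA in the DNA letters of the mRNA strand, occurs after the stop codon in 23.7% of the 15015 mRNAs and in 6 of the 9 regulators, with 2 matches in Pum2 itself and 3 in Msi2.

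Elavl1 (chr8:4284781-4325140, minus strand) was the member with the highest log2 fold change. Input counts were 4260, and IP replicates 1 and 2 held 4636 and 4586, or 115, 131 and 128 CPM. Both IP libraries were slightly higher than the input, with log2 ratios of 0.09 and 0.06 after TMM scaling. The fitted value was 0.07 ± 0.071 (SE; edgeR adjusted p = 0.375). With the GC trend removed it was 0.49 (edgeR adjusted p = 6.24e-09) and with scaling by total counts 0.17 (edgeR adjusted p = 0.0373), below the fold threshold in both, and over all alternatives the adjusted p reached up to 0.947. The GC content of Elavl1 is 43.7%. Its neuronal paralogs were less abundant, with 2.8 TPM for both Elavl2 and Elavl3 and 0.407 TPM for Elavl4 in the input, compared with 36.7 TPM for Elavl1. Elavl2 had a log2 fold change of −0.99 ± 0.132 (SE), just inside the fold threshold, and its IP libraries differed, at −0.77 and −1.25. Elavl3 was at 0.25 ± 0.212 and Elavl4 at −0.31 ± 0.521 (SE), with edgeR adjusted p-values of 0.319 and 0.628.

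All 9 regulators have a 3' UTR longer than the median of 938 bases, from 1784 bases in Igf2bp2 to 6337 in Igf2bp1, and all 9 hold GGACT after the stop codon, as do 58.7% of the 15015 mRNAs. Within 100 bases of the end of the stop codon, where m6A is known to concentrate, 0 of the 9 have a match, compared with 24.3% of the mRNAs. Msi1 and Msi2 each have a match that starts 115 bases before that end, just outside this window. Other forms of the m6A consensus were not searched, and with 9 genes this count is a description only. The number of exons per kb of mRNA ran with the recovery of transcripts across all genes, with a Spearman rho of −0.31 over 15015 genes, given as a description of genes that share the same 3 libraries. The GC content of the exons correlated with recovery to a like degree, with a rho of 0.31 over 19554 genes, and had the opposite sign over the 9 regulators, at −0.22. From the quintile of genes with the fewest exons per kb to the quintile with the most, the median log2 fold change went from 0.63 to 0.22, −0.05, −0.16 and −0.37. Elavl1, Lin28a and Lin28b, with 0.93 to 1.15 exons per kb, belong to the lowest quintile, and all 3 lay below its median of 0.63, and Lin28b lay below its lower quartile of −0.10. Igf2bp1 has 1.79 exons per kb and Igf2bp2 and Igf2bp3 have 4.10 and 3.45, so the family divides in exon density as it does in recovery. Msi2 and Msi1 run the other way, since the more depleted Msi2 has 2.16 exons per kb and Msi1 has 4.91. Each of the 9 lay below the median of its own quintile, and rho over the 9 regulators was −0.60. The part of exon density in the recovery of any of these transcripts was not tested.

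**Figure D4:**
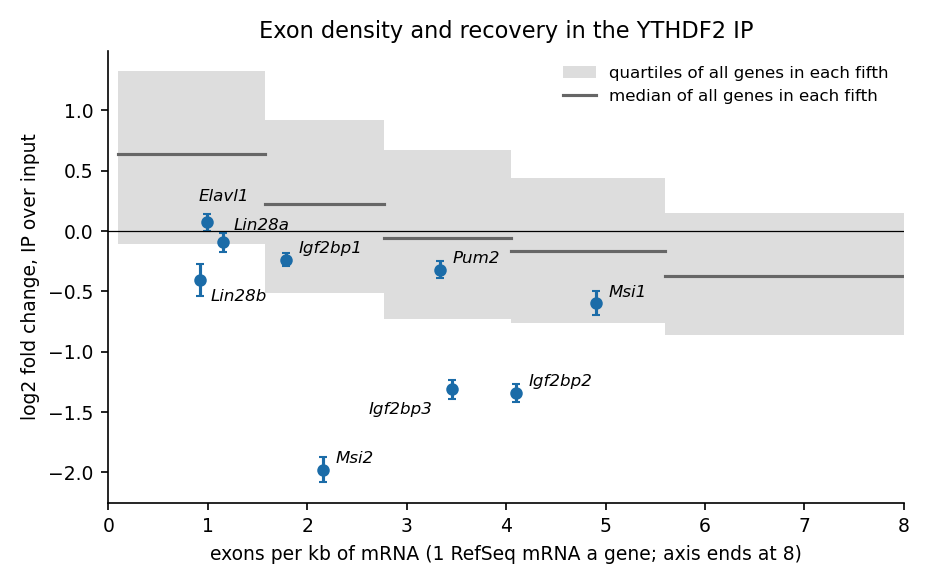
Log2 fold change of YTHDF2 IP over input against exons per kb of mRNA for the 9 regulators (points with SE), over the median (line) and quartiles (grey) of all genes in each quintile of exon density. All 9 points lie below the median of their quintile, and Lin28b, Igf2bp2, Igf2bp3 and Msi2 lie below its lower quartile.

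Other regulators of mRNA were followed in 7 lists of 63 genes, of which 62 could be tested, to set the 9 beside their partners and relatives. Of the 62 genes 4 (6.45%) were enriched and 20 (32.3%) were depleted, and their median log2 fold change was −0.64. The share depleted was similar in the 9 regulators (33.3%), and both were above the 14% of all genes. This similarity depended on the processing. With the GC trend removed 14 of the 62 and 4 of the 9 were depleted, where 2438 of 19601 genes were. With total count scaling 17 of the 62 and 3 of the 9 were depleted, where 2329 of 19601 genes were. The 2 groups were not compared by a test.

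Proteins found together with IGF2BPs in ribonucleoprotein particles gave the lowest median of the 7 lists. Of 8 genes 7 were depleted and 0 enriched, compared with 14% and 15.2% of all genes, and the median was −1.16. At an unadjusted p under 0.05 in the edgeR test 8 of 8 were lower, compared with 31.7% of all genes. Ybx1, which encodes an abundant mRNA-packaging protein, had a log2 fold change of −2.28 ± 0.043 (SE), with 24184 and 25754 counts in the IP libraries. Khdrbs1 was at −1.65 ± 0.068 and Hnrnpab at −1.64 ± 0.047 (SE). Pabpc1, which encodes the cytoplasmic poly(A)-binding protein, was not called, at −0.71 ± 0.042 (SE). Igf2bp2 and Igf2bp3 were thus in the range of this list, and Igf2bp1, at −0.24, lay above every gene in it.

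In the LIN28 and let-7 list 5 of 13 genes were depleted and 0 enriched, compared with 14% and 15.2% of all genes. The median of this list was −0.60. Tut4, the uridylyltransferase that LIN28A recruits to the let-7 precursor, was at −2.13 ± 0.099 (SE). Trim71, a stem cell repressor of mRNAs and a let-7 target, had IP counts of 486 and 536 and was at −1.53 ± 0.124, and Hmga1 was at −1.43 ± 0.056 (SE). The depletion of Igf2, the mRNA for which the IGF2BPs are named, rested on 40 input counts and on 8 and 0 in IP replicates 1 and 2, so only its direction can be read and its fitted value of −3.32 depends on the prior count. At the adjusted p alone 8 of the 13 were lower and 3 were higher, compared with 30.1% and 28.5% of all genes. The 3 were Dicer1, which cuts the let-7 precursor, at 0.90 ± 0.074, and the let-7 targets Myc at 0.68 ± 0.139 and Mycn at 0.43 ± 0.068 (SE). The mRNAs of Myc and Mycn have 0 matches to CTACCTC after the stop codon. Hmga2 of the same list has 4 and was lower, at −0.70 ± 0.140 (SE).

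The Pumilio, Nanos and Smaug list was the only one of the 7 with a median above 0, at 0.44. Of its 6 tested genes 3 lay above 0 and 3 below, so no direction of the list can be read from that median. Of the 6, 2 were enriched and 0 depleted, compared with 15.2% and 14% of all genes. Nanos1 and Nanos3, which encode partners of Pumilio in germ cells, were at 1.14 ± 0.148 and 1.59 ± 0.445 (SE), and Nanos3 was low, with 136 and 94 counts in the IP libraries. Pum2, at −0.32, lay between these and Pum3, at −0.87. Nanos2 had only 2 counts, both in IP replicate 1, and was not tested.

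The ELAV and other 3' UTR binding list had 3 of 10 depleted and 1 enriched, compared with 14% and 15.2% of all genes. Its median was −0.86. Hnrnpd, which encodes AUF1, a protein that competes with HuR for AU-rich elements and favours decay, was at −1.75 ± 0.056 (SE). The decay factor gene Khsrp was at −1.18 ± 0.068 and the splicing repressor gene Ptbp1 at −1.15 ± 0.054 (SE). Pcbp1, which encodes a poly(C)-binding protein, was enriched at 1.03 ± 0.048 (SE). Elavl1, at 0.07, lay between the depleted genes and Pcbp1.

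Among the CELF and CPEB genes 2 of 10 were depleted, Cpeb1 at −1.85 ± 0.348 and Celf1 at −1.25 ± 0.061 (SE), and 0 were enriched. Over all genes 14% were depleted and 15.2% enriched, so with 10 genes these counts are near the background. In the FMRP list 2 of 6 were depleted, Fmr1 at −1.57 ± 0.091 and Caprin1 at −1.44 ± 0.054 (SE), while the stress granule genes G3bp1 and G3bp2 were higher in the IP at 0.74 and 0.31 without passing the fold threshold. In the MEX3, Roquin and Quaking list Mex3d was enriched at 1.59 ± 0.091 and Qk was depleted at −1.22 ± 0.077 (SE).

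**Figure D5:**
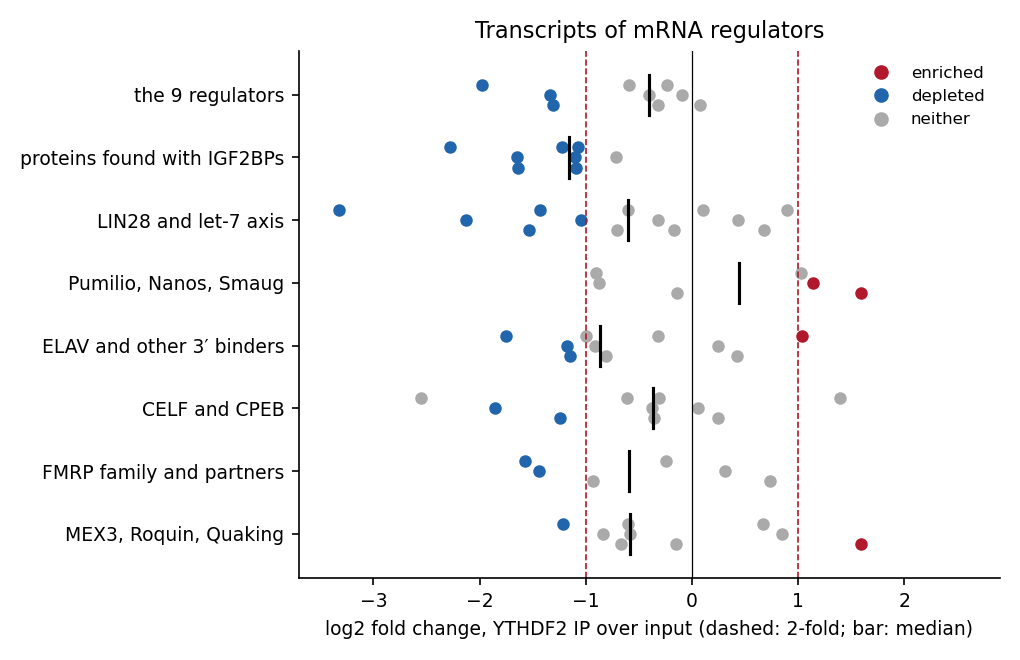
Log2 fold change of YTHDF2 IP over input for the 9 regulators and 7 lists of other mRNA regulators (points, coloured by call), with the median of each list as a bar and 2-fold as dashed lines. Proteins found with IGF2BPs have the lowest median, at −1.16. The Pumilio, Nanos and Smaug list is the only one with a median above 0, with 3 of its 6 tested genes above 0 and 3 below.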

How the data were processed

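RIP-seq libraries of E14 mouse ESCs (1 input and 2 YTHDF2 IP) were grouped by their titles. The deposited table gives reads per gene as unnormalized counts, which the authors made with featureCounts 2.0.3 over mm10 RefSeq exons, without strand and with multi-mapping reads left out by default. The submitters' processing notes name fastp 0.19.4, HISAT2 2.2.1 and DESeq2 1.40.2. Each mate was counted on its own (even numbers made up 61.4% to 64.7% of counts from 1 to 100), so sampling noise exceeds what the counts imply. The table held 0 columns of other samples.

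Genes kept by filterByExpr were scaled by TMM and tested in R 4.3.3 with edgeR 4.0.16 (limma 3.58.1; glmQLFit, robust). The model has 1 residual degree of freedom, from the IP libraries alone. The median prior degrees of freedom were 73.2, so each edgeR p-value rests mostly on the spread pooled over all genes. The SE comes from the fold change and the F statistic, and 0.5 was added to counts for single-library ratios. DESeq2 1.42.0, other scalings, no filter, a dispersion fixed at 0.1, halved counts, GC and length trends removed, no mitochondrial genes and each IP library left out were alternatives. The script was tested on simulated data.

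Sequence features used GRCm38.p6, in which all 49997 symbols matched. The members and lists were chosen with earlier results of these data known. Named genes were the 9 members, Elavl2, Elavl3, Elavl4 and Trim71, and called genes of each list, up to 4 per direction, and some genes that this rule takes are not reported here. Pabpc1, Pum3, Dicer1, Myc, Mycn, Hmga2, G3bp1, G3bp2 and Nanos2 were named after their values were seen.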

Additional observations from a re-analysis of the deposited data

How the results depend on the processing

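No paired analysis was possible because there was only 1 input library for 2 IP libraries. With a dispersion fixed at 0.1, 1 of the 9 regulators was depleted instead of 3 (Msi2), and of the other regulators 12 were depleted instead of 20 and 0 enriched instead of 4. Calls fell over all 19601 genes as well, to 1531 depleted and 1577 enriched from 2743 and 2973. The median log2 fold change of the 9, −0.41, was −0.31 with total count scaling (which moved the median of all genes by 0.0959), −0.38 without a filter, −0.39 with DESeq2's Wald test, −0.36 with the GC trend removed and −0.35 with the length trend removed. Leaving out an IP library gave −0.41 to −0.40. The sign turned for Lin28a with total count scaling (0.00183), and for Lin28b (0.17) and Pum2 (0.10) with the GC trend removed. The causes were not tested. By CPM in place of TPM, Pum2 ranked 3 and Igf2bp3 4, and Msi2 ranked 7 and Msi1 8. Elavl1 moved from 0.07 to 0.49 with the GC trend removed. Otherwise the log2 fold changes of the 9 kept their direction, and in the 9 alternatives with a test their side of the call threshold, except that Igf2bp2 and Igf2bp3 lost their call at the fixed dispersion and Msi1 gained one with the GC trend removed. The single input and 1 residual degree of freedom limit these values, and each of the 9 had at least 623 counts in every library.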
